A study of Homo sapiens with 12 samples.

Results

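Sterol and fatty acid synthesis was followed through 31 genes, taken by symbol from a table of 56634 gene rows, of which 14822 held enough counts to be tested. All 31 genes were found and all 31 passed the filter on low counts. They were read as 7 early mevalonate genes, 11 late sterol genes, 6 regulators and 7 fatty acid genes. RNA was sequenced in bulk from HEK293, a human embryonic kidney cell line, in 4 groups of 3 biological replicates. Cells of the DMSO group were kept for 3 h in 0.1% DMSO and those of the SnxB group for 3 h in Senexin B at 1 µM, a compound that inhibits CDK8 and CDK19, the kinases of the Mediator complex. In the TNF group TNFα at 10 ng/mL was present for the last 2 h, after 1 h of DMSO, and in the TNF_SnxB group it was present for the last 2 h after 1 h of Senexin B at 1 µM. A single cell line, 1 dose and 1 time limit what the groups can stand for.

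Cells build cholesterol from acetyl-CoA through mevalonate, farnesyl diphosphate, squalene and lanosterol, and they build fatty acids from acetyl-CoA through malonyl-CoA. Many of these enzymes are transcribed under the SREBP factors, which are held in the endoplasmic reticulum with the escort protein SCAP and the INSIG anchors when sterol is plentiful and are released to the nucleus when sterol is low. INSIG1 is itself a target of the SREBP factors, so its transcript is widely read as a gauge of the pathway. HEK293 cells make their own sterol and fatty acid, and they are neither liver cells nor fat cells.

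Library totals ran from 8705277 to 50943310 counts, TNF library 2 being the deepest (4.87 times the median of the remaining 11), and the lowest count of any of the 31 genes in any library was 143. Of 8 markers of HEK293 cells 6 were tested, against 0 of 8 leukocyte markers, 0 of 7 liver and fat cell markers and 2 of 9 endothelial and fibroblast markers. The mean CPM (a gene's counts relative to the scaled total of its library) of MYC was 91.1 in DMSO and 18.0 in SnxB, and that of NFKBIA, the classic TNFα target, was 27.3 in DMSO and 271 in TNF. TNF_SnxB libraries 2 and 3 stood apart from the other 10. Set against TNF_SnxB library 1, their counts gave chi-square values of 5.63 and 5.39 per degree of freedom, where pairs of replicates in the other groups gave 1.07 to 1.58 and the 2 libraries against each other 1.21. In these 2 libraries genes with GC-rich transcripts lay low and GC-poor ones high (Spearman -0.680 and -0.678 between a gene's deviation and its GC content, and -0.115 to 0.447 in the other 10). Each comparison with the TNF_SnxB group is therefore given also without these 2 libraries and with counts corrected for GC content and transcript length, here called the GC correction. In bulk RNA fewer cells of a kind and less RNA per cell cannot be told apart.

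The 4 promoter stretches below belong to the early mevalonate genes HMGCS1, IDI1 and MVD and the regulator INSIG1, which moved under Senexin B in the sections that follow and have a promoter entry. Each lies within the 250 bases before an annotated start and outside any annotated exon. Each is written 5′ to 3′ on the strand of its gene and comes from RefSeq (GRCh38.p14). Capitals mark CCAAT, the box bound by NF-Y, a partner of the SREBP factors, or its complement ATTGG, and CACNCCAC, the core of the sterol regulatory element, or its complement.
HMGCS1, chr5:43313513-43313662, minus strand: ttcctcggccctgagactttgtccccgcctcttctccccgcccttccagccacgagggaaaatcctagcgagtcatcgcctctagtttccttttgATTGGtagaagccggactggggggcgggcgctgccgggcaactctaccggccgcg
IDI1, chr10:1049171-1049369, minus strand: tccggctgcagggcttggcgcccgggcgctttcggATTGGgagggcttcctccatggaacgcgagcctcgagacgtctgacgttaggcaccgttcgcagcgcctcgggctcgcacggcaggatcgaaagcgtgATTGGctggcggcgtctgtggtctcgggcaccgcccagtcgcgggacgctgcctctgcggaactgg
INSIG1, chr7:155297628-155297775, plus strand: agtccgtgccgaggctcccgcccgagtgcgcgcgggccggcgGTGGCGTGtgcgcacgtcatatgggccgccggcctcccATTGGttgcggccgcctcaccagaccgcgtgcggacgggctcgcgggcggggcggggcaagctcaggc
MVD, chr16:88663162-88663297, minus strand: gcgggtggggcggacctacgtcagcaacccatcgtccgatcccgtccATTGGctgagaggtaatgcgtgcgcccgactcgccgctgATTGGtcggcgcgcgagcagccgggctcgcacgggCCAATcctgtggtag

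Of the 31 genes 27 had a promoter entry, and letters were searched on both strands in the whole 250 bases. Where a gene had more than 1 entry, as IDI1 with 3 and HMGCS1 with 2, a match in any of them counted. CCAAT was present in 19 of the 27 (70.4%), against 41.5% of 10325 tested genes with an entry. The core CACNCCAC was present in 6, namely IDI1 (outside the stretch printed), SC5D, INSIG1, SREBF2, ACACA and SCD (22.2% against 6.64%), and the longer form TCACNCCAC, which contains the core, in SREBF2 alone (3.70% against 1.18%). The E-box CACGTG was present in 3 (11.1% against 11.5%) and the GC box GGGCGG in 26 (96.3% against 76.1%). The core was added to the search after the values were known, and a match is a description of letters only. CCAAT stood before MVD, which rose under Senexin B, as well as before HMGCS1, IDI1 and INSIG1, which fell, and before 15 of 23 genes with an entry that were not called.

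In the DMSO group 3 of the 7 fatty acid genes were the most abundant of the 31, and the other 4 ranked from 20 to 27. Per length of transcript (counts per kilobase of exon, scaled so that the libraries have one total), ACLY, which makes cytosolic acetyl-CoA, stood at 813 ± 7.66 (SD, n = 3), SCD, the stearoyl-CoA desaturase, at 632 ± 7.59 and FASN, the fatty acid synthase, at 537 ± 12.2. INSIG1 followed at 447 ± 10.4, then IDI1, the isopentenyl diphosphate isomerase, at 430 ± 13.1 and HMGCS1, the cytosolic HMG-CoA synthase, at 395 ± 8.34. INSIG1 and IDI1 lay within their spread of each other in this order, and ACLY, SCD and FASN were apart. Squalene epoxidase, SQLE, stood at 289 ± 8.10 and farnesyl diphosphate synthase, FDPS, at 271 ± 1.39. At the low end ELOVL6, a fatty acid elongase, stood at 22.2 ± 0.404, INSIG2 at 19.4 ± 1.44, mevalonate kinase MVK at 16.0 ± 1.34, HSD17B7 at 15.1 ± 0.0928 and SREBF1, which encodes SREBP-1, at 14.0 ± 0.426. SREBF2, which encodes SREBP-2, stood at 147 ± 3.34 on the same scale. The genes that fell most under Senexin B below, INSIG1, HMGCS1, IDI1 and SQLE, held 4 of the ranks from 4 to 7.

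Senexin B on its own, SnxB against DMSO, lowered a small set of sterol genes. INSIG1, HMGCS1, IDI1, SQLE and FDFT1 fell, MVD rose, and 25 of the 31 did not pass the test (edgeR, called where the p adjusted over all tested genes was under 0.05). Over all tested genes 2.03% were called, 1.69% lower and 0.344% higher. Of the 31, 6 were lower and 3 higher without TNF_SnxB libraries 2 and 3 in the shared fit, against 4.08% and 1.57% (5.66% in either direction). They were likewise 6 and 3 after the GC correction, against 3.57% and 1.21% (4.78%). The median log2 fold change of the 31 was 0.01, against 0.00 over all tested genes. At an unadjusted p under 0.05 there were 11 of the 31, against 12.1% of all tested genes.

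Among the early mevalonate genes, HMGCS1 measured 435, 435 and 448 CPM in the DMSO libraries and 282, 277 and 278 in the SnxB libraries. It encodes the enzyme that condenses acetyl-CoA and acetoacetyl-CoA into HMG-CoA, and every SnxB library lay under every DMSO library. It fell by 0.66 on the log2 scale (SE 0.0423, edgeR adjusted p 2.61e-12), 1.58-fold. IDI1 measured 452, 426 and 445 CPM in DMSO and 297, 295 and 290 in SnxB. IDI1 fell by 0.59 (SE 0.0437, adjusted p 5.61e-11), and its fitted level fell by 33.4%, again with no overlap of the groups. MVD, which decarboxylates mevalonate diphosphate in the step just before IDI1, went the other way. Its libraries measured 71.4, 72.0 and 61.5 CPM in DMSO and 84.7, 81.2 and 84.2 in SnxB, a rise of 0.29 (SE 0.0631, adjusted p 0.00815). Without DMSO library 3, the lowest of the 3, its log2 fold change was 0.22 (adjusted p 0.119). ACAT2, the acetyl-CoA acetyltransferase that opens the pathway, measured 177, 173 and 179 CPM in DMSO and 189, 197 and 194 in SnxB, which did not overlap, with a log2 fold change of 0.13 (SE 0.0438, adjusted p 0.148). Its adjusted p was 0.00339 without TNF_SnxB libraries 2 and 3, which enter the shared estimate of the spread. MVK, phosphomevalonate kinase PMVK and FDPS had log2 fold changes of 0.06, -0.04 and 0.01, none of which passed the test. Neighbouring steps of 1 linear route thus held 2 genes that fell, 1 that rose and 4 that did not pass.

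Among the late sterol genes, SQLE measured 296, 286 and 301 CPM in DMSO and 223, 234 and 223 in SnxB. Squalene epoxidase catalyses the first oxygen-dependent and a rate-limiting step of sterol synthesis, and its SnxB libraries all lay under its DMSO libraries. SQLE fell by 0.37 (SE 0.0391, adjusted p 8.35e-08), 1.30-fold. FDFT1, the squalene synthase one step earlier, measured 189, 182 and 183 CPM in DMSO and 175, 163 and 154 in SnxB. It fell by 0.18 (SE 0.0471, adjusted p 0.0461), a change near the threshold. Without SnxB library 3, the lowest, its log2 fold change was -0.13 (adjusted p 0.362). The other 9 genes, which act on lanosterol and after it or close it from squalene epoxide, did not pass the test. Their log2 fold changes ran from -0.13 for NSDHL to 0.19 for HSD17B7. TM7SF2, a sterol reductase, measured at most 34.2 CPM in DMSO and 36.8, 38.0 and 36.6 in SnxB, and its groups did not overlap, with a log2 fold change of 0.18 (adjusted p 0.305). The lanosterol demethylase CYP51A1 had a log2 fold change of 0.04 (95% interval -0.06 to 0.14) and DHCR7, a reductase at the end of the pathway, 0.01 (-0.09 to 0.11).

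Among the regulators, INSIG1 changed most of all 31 genes in log2 size. It measured 378, 395 and 383 CPM in DMSO and 225, 221 and 224 in SnxB. It fell by 0.79 (SE 0.0389, adjusted p 3.24e-15), 1.73-fold. INSIG2, the second anchor protein, measured 19.5, 16.8 and 17.9 CPM in DMSO and 20.6, 20.5 and 20.4 in SnxB, with a log2 fold change of 0.18 (SE 0.0895, adjusted p 0.440). The 2 anchor genes thus had fold changes of opposite sign, and only that of INSIG1 passed the test. The difference between the 2 genes was not tested. Transcripts of the SREBP factors and of the escort protein SCAP showed no called change. The log2 fold change was 0.00 for SREBF2 (95% interval -0.10 to 0.11), 0.02 for SREBF1 (-0.15 to 0.19) and 0.09 for SCAP (-0.03 to 0.21). The proteins and their release to the nucleus were not measured. STARD4, a cytosolic sterol carrier, measured 88.5, 79.4 and 81.9 CPM in DMSO and 93.8, 96.1 and 90.2 in SnxB, which did not overlap, with a log2 fold change of 0.16 (SE 0.0741, adjusted p 0.359, and 0.00897 without TNF_SnxB libraries 2 and 3).

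None of the 7 fatty acid genes passed the test in SnxB against DMSO. With edgeR 0 of 7 were called, against 2.03% of all tested genes, and 0 of 7 had an unadjusted p under 0.05, against 12.1%. With DESeq2, which called 269 of all tested genes, the counts were also 0 and 0. For 7 genes a count of 0 is near these shares. Their log2 fold changes ran from -0.07 for FADS2 to 0.04 for FASN, and their 95% intervals from -0.17 to 0.13. FASN measured 1190, 1216 and 1156 CPM in DMSO and 1218, 1208 and 1237 in SnxB, and the groups overlapped. SCD measured 795, 797 and 807 CPM in DMSO and 788, 776 and 773 in SnxB, which did not overlap, with a log2 fold change of -0.04 (SE 0.0292, adjusted p 0.686). FADS2, a fatty acid desaturase, was called lower after the GC correction, at -0.11 (adjusted p 0.0146).

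**Figure D1:**
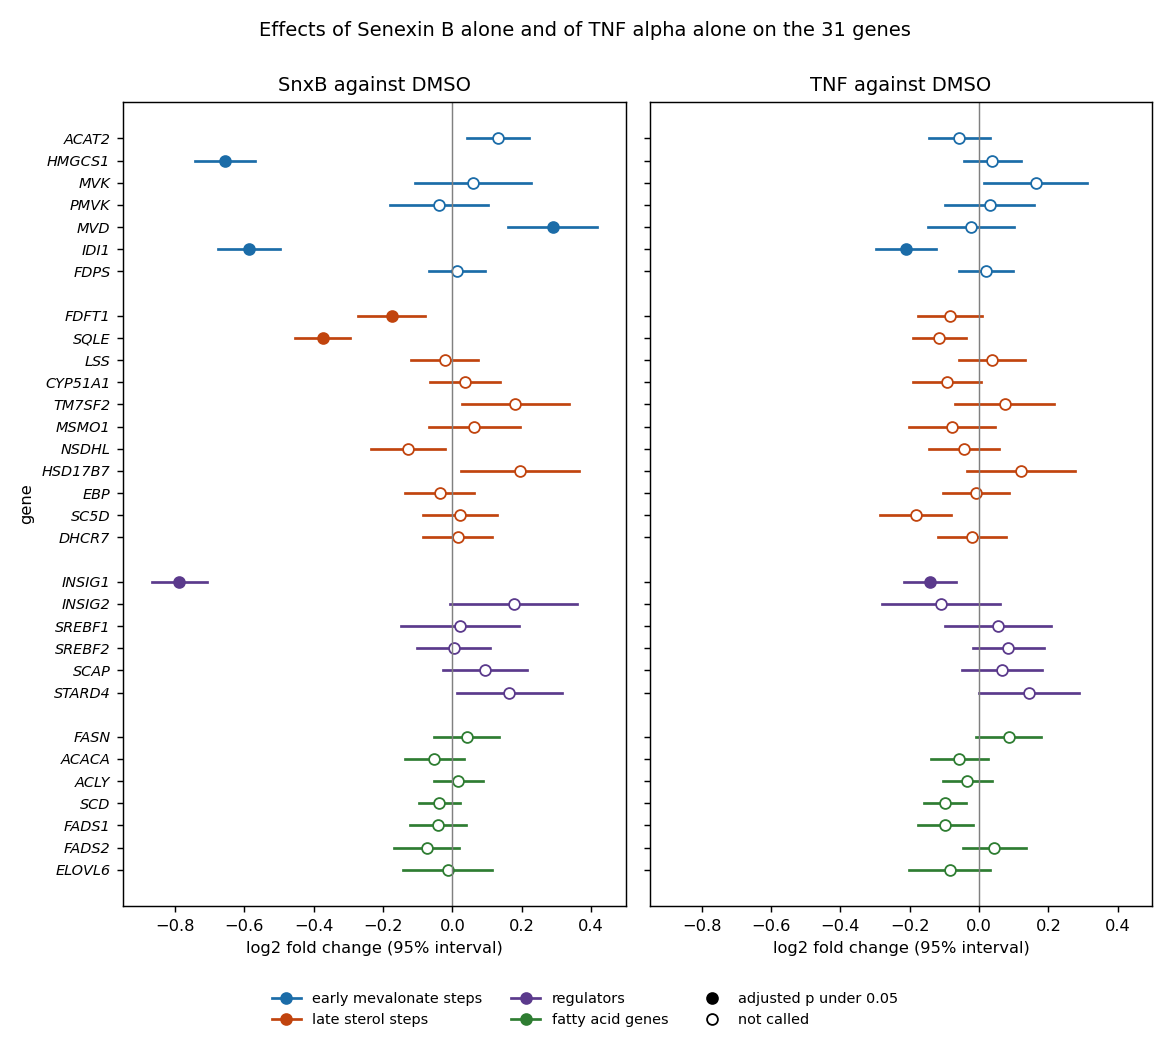
Log2 fold change with its 95% interval (x axis) of each of the 31 genes (y axis) in SnxB against DMSO (left) and TNF against DMSO (right), with color for the gene group and filled points for an adjusted p under 0.05. INSIG1, HMGCS1, IDI1 and SQLE lie well to the left in SnxB, from -0.79 to -0.37, while all 7 fatty acid genes lie between -0.07 and 0.04.

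The groups of 3 libraries did not overlap between SnxB and DMSO for 14 of the 31 genes, 8 lower and 6 higher, against 20.4% of all tested genes (10.9% lower and 9.49% higher). The summed level shows how the change was spread. Over all 31 genes the sum was 7456 ± 34.2 CPM in DMSO and 6958 ± 23.6 in SnxB (SD, n = 3 each). The sum over INSIG1, HMGCS1, IDI1 and SQLE, chosen for their calls, was 1560 ± 17.3 CPM in DMSO and 1023 ± 5.76 in SnxB, and the sum over the other 27 was 5896 ± 46.7 and 5935 ± 26.4. The whole sum fell by 498 CPM, and the sum of these 4 genes fell by 537 CPM. The 7 fatty acid genes summed to 3659 ± 38.1 CPM in DMSO and 3660 ± 7.45 in SnxB.

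None of 8 genes of SREBP processing and turnover, 9 genes of mevalonate branches, 6 tested LXR genes and 16 tested genes of acyl-CoA and lipid assembly was called in SnxB against DMSO by edgeR, and 3, 1, 1 and 1 of them had an unadjusted p under 0.05, which 12.1% of all tested genes had. Of all tested genes 2.03% were called in either direction and 0.344% higher. Of 10 tested genes of sterol transport and storage 1 was called. That gene was TMEM97, the sigma-2 receptor, which is known as a sterol-regulated membrane protein. It stood at 147 CPM in DMSO and 177 in SnxB, a rise of 0.27 (SE 0.0446, adjusted p 0.00032). NEFL, a neurofilament gene on the HEK293 marker list, fell by 0.37 (adjusted p 0.000221) and the other 5 tested markers of that list did not pass. The part of these values in the sterol changes was not tested.

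For TNFα alone, TNF against DMSO, few of these genes passed the test in the fit of all 12 libraries. IDI1 and INSIG1 were called lower and none of the 31 higher, against 0.594% of all tested genes called lower, 1.43% higher and 2.02% in either direction. IDI1 measured 381, 381 and 382 CPM in the TNF libraries, all under the DMSO range of 426 to 452, and fell by 0.21 (SE 0.0423, adjusted p 0.00252). INSIG1 measured 344, 345 and 360 CPM in TNF, against 378 to 395 in DMSO, and fell by 0.14 (SE 0.0371, adjusted p 0.0358). Without TNF library 2 its log2 fold change was -0.13 (adjusted p 0.267). HMGCS1, which fell under Senexin B, measured 439, 455 and 458 CPM in TNF, with a log2 fold change of 0.04 (95% interval -0.04 to 0.12). SQLE measured 266, 274 and 274 CPM in TNF, under all its DMSO libraries, with a log2 fold change of -0.11 (SE 0.0377, adjusted p 0.155).

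SC5D, the sterol C5 desaturase, came just short of the threshold. It measured 137, 134 and 140 CPM in DMSO and 122, 124 and 115 in TNF, a log2 fold change of -0.18 (SE 0.0502, adjusted p 0.0524). SCD had a log2 fold change of -0.10 (SE 0.0289, adjusted p 0.083), with TNF libraries at 752, 746 and 744 CPM, all under the DMSO libraries. The groups did not overlap for 15 of the 31 genes, 11 lower and 4 higher, against 20.2% of all tested genes (10.0% lower and 10.2% higher). When TNF_SnxB libraries 2 and 3 were left out of the shared fit, 6 genes were called lower (IDI1, SQLE, SC5D, INSIG1, SCD and FADS1) and 3 higher (SREBF2, STARD4 and FASN), against 2.21% and 3.41% of all tested genes (5.62% in either direction). With the GC correction 6 were lower and 1 higher, against 1.49% and 2.37% (3.86%). That 1 was STARD4, which stood at 0.19 (adjusted p 0.00133), while FASN stood at 0.01 (adjusted p 0.932). The transcript GC content of FASN is 65.3% and that of STARD4 34.2%. Across the 31 genes the TNFα effect ran with transcript GC content (Pearson 0.476, Spearman 0.536, given as a description over genes that share the same libraries).

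**Figure D2:**
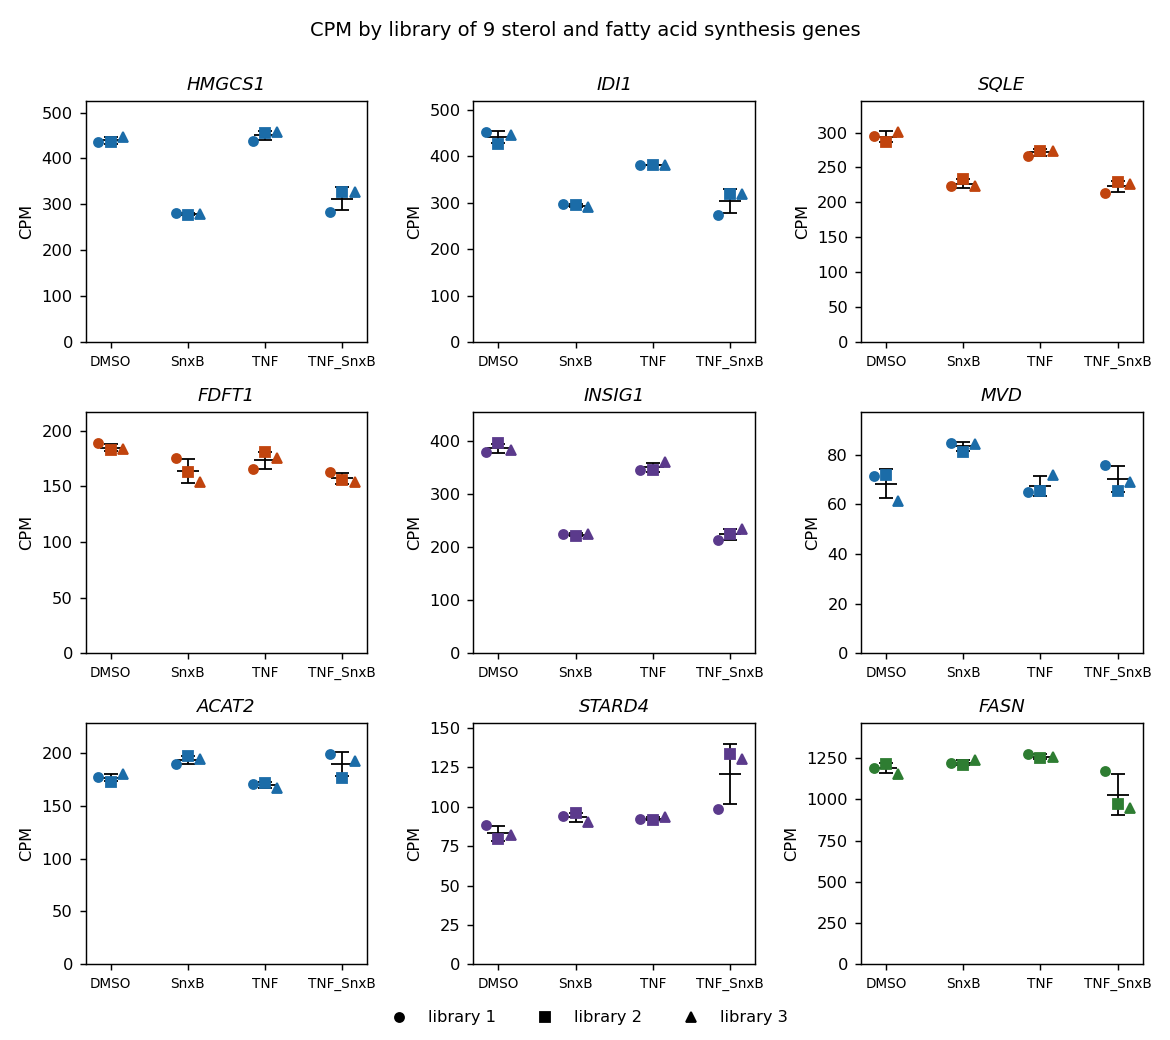
CPM (y axis, from 0) of 9 of the 31 genes in each library of the 4 groups (x axis), with bars for the mean and SD of 3 libraries and the marker shape for the library number. HMGCS1, IDI1, SQLE and INSIG1 lie lower in both groups with Senexin B, and TNF_SnxB libraries 2 and 3 lie apart from library 1 for STARD4 and FASN.

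The same Senexin B question was asked in cells with TNFα, by comparing TNF_SnxB with TNF. These libraries are shared with neither the SnxB nor the DMSO group. INSIG1, HMGCS1, IDI1 and SQLE fell here too, with all 12 libraries, without TNF_SnxB libraries 2 and 3, and after the GC correction. With all 12 libraries 6 of the 31 genes were called higher and 13 lower, against 13.3% and 13.9% of all tested genes (27.2% in either direction). Without TNF_SnxB libraries 2 and 3, when TNF_SnxB library 1 stands alone and is assumed to vary like the other groups, 1 was higher and 5 lower, against 0.727% and 1.91% (2.64%). After the GC correction 5 were higher and 6 lower, against 4.75% and 7.12% (11.9%). The groups did not overlap for 19 of the 31 genes, 10 lower and 9 higher, against 32.1% of all tested genes (16.4% and 15.6%).

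INSIG1 measured 344, 345 and 360 CPM in TNF and 213, 225 and 234 in TNF_SnxB. It fell by 0.64 (SE 0.0381, adjusted p 3.13e-13), and by 0.72 (adjusted p 1.15e-28) without libraries 2 and 3. HMGCS1 measured 439, 455 and 458 CPM in TNF and 283, 326 and 327 in TNF_SnxB. All TNF_SnxB libraries of HMGCS1 lay under all TNF libraries, with library 1 the lowest. HMGCS1 fell by 0.53 (SE 0.0411, adjusted p 1.33e-10), and by 0.68 (adjusted p 8.85e-30) without libraries 2 and 3. IDI1 measured 381, 381 and 382 CPM in TNF and 273, 318 and 319 in TNF_SnxB. Its log2 fold change of -0.32 (SE 0.0429, adjusted p 4.29e-06) compares with -0.48 (SE 0.0381, adjusted p 2.28e-19) without libraries 2 and 3. SQLE measured 266, 274 and 274 CPM in TNF and 214, 229 and 226 in TNF_SnxB. SQLE fell by 0.28 (SE 0.0382, adjusted p 5.77e-06), and by 0.35 (adjusted p 2.2e-10) without libraries 2 and 3. With the GC correction INSIG1, HMGCS1, IDI1 and SQLE stood at -0.68, -0.66, -0.44 and -0.31, all called.

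FDFT1 measured 165, 180 and 175 CPM in TNF and 163, 155 and 154 in TNF_SnxB. It fell by 0.15 (SE 0.0457, adjusted p 0.0154). Its log2 fold change was -0.11 (adjusted p 0.301) without libraries 2 and 3 and -0.16 (adjusted p 0.000566) after the GC correction. ACAT2 rose, from 170, 172 and 167 CPM in TNF to 198, 176 and 192 in TNF_SnxB, by 0.15 (SE 0.0425, adjusted p 0.00872), by 0.22 (adjusted p 0.000342) without libraries 2 and 3 and by 0.18 (adjusted p 2.96e-05) after the GC correction. The ACAT2 call was kept in 18 of 20 alternative settings. It was lost with only the groups compared (0.15, edgeR adjusted p 0.0506) and without TNF_SnxB library 3 (0.14, adjusted p 0.0540). The transcript of this opening step thus rose in these cells while that of the following step, HMGCS1, fell. ACAT2 overlaps TCP1 on the opposite strand, so some of its counts could be shared. MVD measured 65.0, 65.3 and 71.9 CPM in TNF and 75.9, 65.6 and 69.0 in TNF_SnxB, which overlapped. Its log2 fold change was 0.06 (adjusted p 0.505) with all libraries, 0.19 (adjusted p 0.161) without libraries 2 and 3 and 0.29 (adjusted p 9.4e-07) after the GC correction. TMEM97, of the list for sterol transport and storage, rose by 0.34 (adjusted p 2.62e-06), and by 0.27 without libraries 2 and 3. Counts of called genes on the surrounding lists are not given for that fit, in which TNF_SnxB library 1 stands alone. Of the 6 tested HEK293 markers 4 were called lower with all libraries, against 13.9% of all tested genes. After the GC correction 2 were, against 7.12%. The part of this in the sterol changes was not tested.

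The remaining calls with all 12 libraries lay in TNF_SnxB libraries 2 and 3 more than in library 1. STARD4 measured 92.0, 91.5 and 93.4 CPM in TNF and 98.8, 133 and 131 in TNF_SnxB, and its log2 fold change of 0.40 (adjusted p 0.0001) was 0.10 (adjusted p 0.487) without libraries 2 and 3. MSMO1, CYP51A1, SC5D and INSIG2 had log2 fold changes of 0.30, 0.24, 0.24 and 0.24 with all libraries, and of 0.11, 0.10, 0.08 and 0.08, none called, without them. The GC correction kept the calls of STARD4 (0.18, adjusted p 0.000236), MSMO1 (0.14, adjusted p 0.00612) and CYP51A1 (0.12, adjusted p 0.00673), while SC5D (0.08) and INSIG2 (0.04) were not called. These 5 genes have transcripts of low GC content, from 34.2% to 41.5%. On the other side FASN measured 1273, 1249 and 1257 CPM in TNF and 1169, 970 and 947 in TNF_SnxB. Its log2 fold change of -0.29 (SE 0.0456, adjusted p 4.65e-05) was -0.11 (adjusted p 0.00923) without libraries 2 and 3 and -0.05 (adjusted p 0.139) after the GC correction. FADS2, TM7SF2, LSS, EBP and NSDHL had log2 fold changes of -0.26, -0.29, -0.21, -0.15 and -0.14 with all libraries, and without libraries 2 and 3 of -0.13, -0.06, -0.07, -0.07 and -0.06, none called. With the GC correction FADS2 was still called (-0.11, adjusted p 0.00277) and the other 4, from -0.11 to -0.06, were not. SCAP and SREBF2 were at -0.15 and -0.13, both with an adjusted p of 0.0487, at -0.01 and 0.05 without those libraries and at 0.05 and -0.01 after the GC correction, neither called.

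INSIG1, HMGCS1, IDI1, SQLE and FDFT1 were called lower in both Senexin B comparisons with all libraries, 5 of 31 against 1.17% of all tested genes. The shared lower genes without TNF_SnxB libraries 2 and 3 were INSIG1, HMGCS1, IDI1 and SQLE (1.31% of all tested genes), and ACAT2 was called higher in both (0.295%). After the GC correction ACAT2, MVD and STARD4 were called higher in both, against 0.702%, and FADS2 joined the 5 lower genes, against 2.45%. Across the 31 genes the 2 Senexin B effects correlated with Pearson 0.725 and Spearman 0.579 with all libraries, and with 0.936 and 0.754 without libraries 2 and 3. These values are descriptions across genes, which are not independent.

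**Figure D3:**
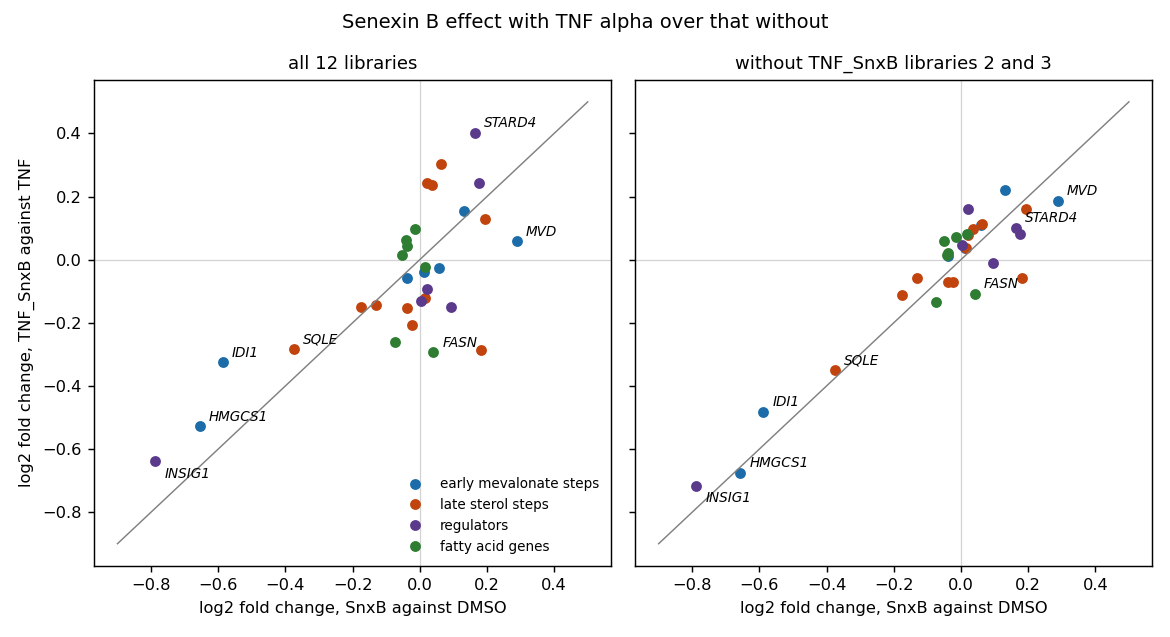
Log2 fold change of each of the 31 genes in TNF_SnxB against TNF (y axis) over that in SnxB against DMSO (x axis), with all 12 libraries (left) and without TNF_SnxB libraries 2 and 3 (right), color for the gene group and a line of equal effects. INSIG1, HMGCS1, IDI1 and SQLE lie at the lower left in both panels, and the other genes lie closer to the line on the right.

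The TNFα effect in cells with Senexin B, TNF_SnxB against SnxB, gave 2 genes called higher and 7 lower with all 12 libraries, against 7.38% and 6.83% of all tested genes (14.2% in either direction). HMGCS1 and STARD4 rose by 0.17 and 0.38, and MVD, LSS, TM7SF2, DHCR7, SCAP, FASN and FADS2 fell, by 0.14 for FADS2 to 0.39 for TM7SF2. Without TNF_SnxB libraries 2 and 3 edgeR called 0 of the 31, against 1.43% (1.16% higher and 0.275% lower), with 4 at an unadjusted p under 0.05 (9.43% of all tested genes). With all libraries edgeR and DESeq2 each called 9. STARD4 alone was called after the GC correction, at 0.20 (adjusted p 0.000783), against 5.16% (3.16% higher and 2.00% lower). IDI1, which fell under TNFα without the inhibitor, measured 297, 295 and 290 CPM in SnxB and 273, 318 and 319 in TNF_SnxB, with a log2 fold change of 0.05 (95% interval -0.04 to 0.14), and of -0.10 (SE 0.0400, adjusted p 0.275) without libraries 2 and 3. INSIG1 stood at 223 ± 2.10 CPM in SnxB and 224 ± 10.6 in TNF_SnxB.

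Whether the Senexin B effect differed with TNFα was tested by the interaction, the effect with TNFα minus the effect without it. With all 12 libraries IDI1 was called at 0.26 (SE 0.0612, adjusted p 0.0298), FASN at -0.33 (SE 0.0646, adjusted p 0.0192) and TM7SF2 at -0.47 (SE 0.103, adjusted p 0.0275), 3 of 31 against 2.50% of all tested genes (0.891% higher and 1.61% lower). Without TNF_SnxB libraries 2 and 3 IDI1 was at 0.11 (adjusted p 0.639), TM7SF2 at -0.24 (adjusted p 0.681) and FASN at -0.15 (adjusted p 0.0211), the only call, against 0.124% (0.0786% higher and 0.0458% lower). With the GC correction as well FASN was at -0.03 (adjusted p 0.913). After the GC correction with all libraries 0 of 31 were called by edgeR, against 0.324% (0.135% higher and 0.189% lower), and 5 had an unadjusted p under 0.05 (9.47% of all tested genes). For INSIG1, HMGCS1 and SQLE the interaction was 0.15, 0.13 and 0.09 with all libraries (adjusted p 0.105, 0.188 and 0.322), with 95% intervals of 0.04 to 0.26, 0.01 to 0.25 and -0.02 to 0.20. Without libraries 2 and 3 the 3 values were 0.07, -0.02 and 0.03.

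The interaction followed transcript GC content across the 31 genes with all libraries (Pearson -0.876, Spearman -0.900), from TM7SF2 (64.2% GC) and FASN (65.3%) at the lower end to IDI1 (41.1%) and MSMO1 (38.1%) at the upper. Without TNF_SnxB libraries 2 and 3 the values were -0.317 and -0.294. These are descriptions across genes of the same libraries.

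**Figure D4:**
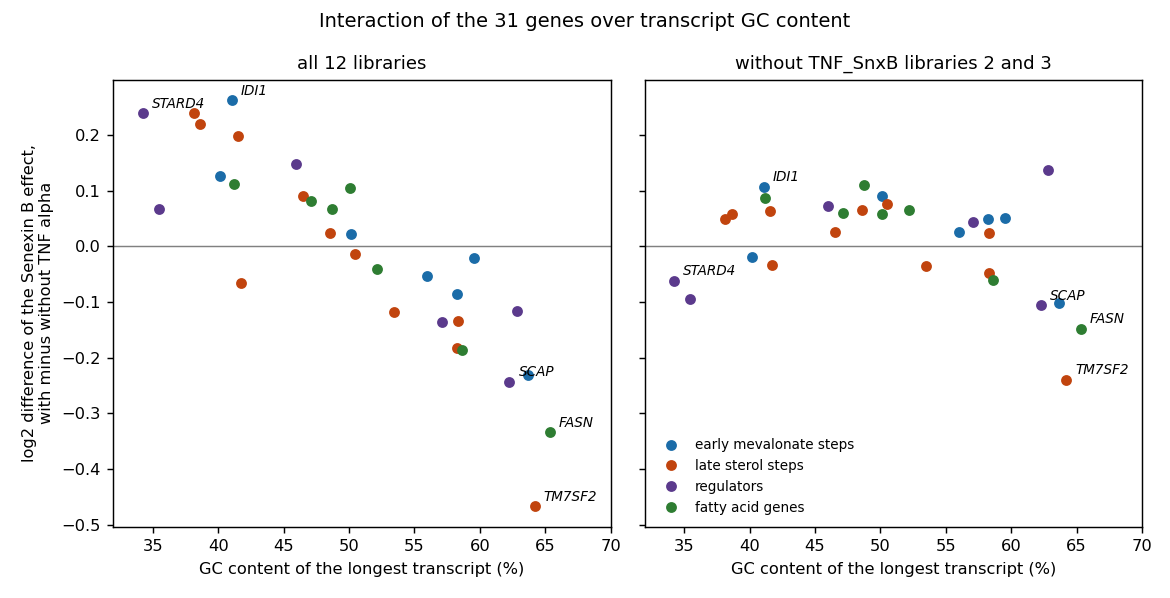
Interaction of each of the 31 genes (y axis, log2) over the GC content of its longest transcript (x axis, %), with all 12 libraries (left) and without TNF_SnxB libraries 2 and 3 (right), and color for the gene group. The points fall along a slope on the left, down to -0.47 for TM7SF2, and lie nearer 0 on the right.

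Some values rest on counts that could be shared with another gene, since the strand setting of the counting is not given in the sources used here. ACAT2 overlaps TCP1, MVK overlaps MMAB, SREBF1 overlaps RAI1 and FADS1 overlaps FADS2, each on the opposite strand, while TM7SF2 overlaps VPS51 and FADS2 overlaps FEN1 on the same strand. Over all libraries TCP1 held 257% of the counts of ACAT2, MMAB 279% of those of MVK and RAI1 222% of those of SREBF1. VPS51 held 210% of the counts of TM7SF2, FEN1 118% of those of FADS2 and FADS2 97.5% of those of FADS1. HSD17B7 has a near copy, HSD17B7P2, with 446 counts over all libraries against 3157. For IDI1 the overlapping antisense gene held 0.297% of its counts, and for INSIG1, HMGCS1 and SQLE no overlapping gene was found.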

How the data were processed

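One table of unnormalized counts was deposited, with a row for each gene symbol and a column for each library. Per the submitters' processing notes the tools were STAR 2.4, SAMtools 1.2 and featureCounts of Subread 1.4.6 on hg38 (GRCh38), and neither annotation nor strand setting is given in the sources used here. Counts were filtered with filterByExpr (14822 of 56634 rows), given TMM scaling factors and modelled together, all 12 libraries in 1 quasi-likelihood fit (edgeR 4.0.16, R 4.3.3). Each contrast had a two-sided F test with Benjamini-Hochberg adjustment over all tested genes, and calls were made under 0.05. SE is the log2 fold change divided by the root of F. A count of 3, the detection floor, corresponds to 0.0595 to 0.342 CPM and covers counting error only.

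GC content, length and overlaps came from a GENCODE annotation of GRCh38, matched for 90.6% of tested genes, and the GC correction used loess offsets with a span of 0.3. Alternatives were DESeq2 1.42.0 and its size factors, no filter, only the groups compared, a replicate block, the GC correction, and leaving out TNF_SnxB libraries 2 and 3 or each library in turn. Leaving out those 2 libraries together with the GC correction was added after seeing the data. In simulated data for SnxB against DMSO, with 14677 genes, 80% of genes changed 1.5-fold and 87.9% of those changed 2-fold were called, with 12 false calls. For the interaction the shares were 71% and 81.6%. The simulated counts held no GC-related shift such as that of TNF_SnxB libraries 2 and 3, so these rates do not cover it. The members and lists were chosen with earlier results of these data known. All members could be named, those called in any contrast with their values, and of each surrounding list up to 3 called genes.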

Additional observations from a re-analysis of the deposited data

Results flagged for a closer look

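The effect of Senexin B with and without TNFα was called different for 3 of the 31 genes, against 2.50% of all tested genes. This was the interaction test with all 12 libraries (edgeR, adjusted p under 0.05). The difference, with minus without TNFα, was 0.26 on the log2 scale for IDI1 (adjusted p 0.0298), -0.33 for FASN (adjusted p 0.0192) and -0.47 for TM7SF2 (adjusted p 0.0275). After the GC correction the values were 0.14, -0.05 and -0.22, with adjusted p of 0.111, 0.672 and 0.327. Without TNF_SnxB libraries 2 and 3 they were 0.11, -0.15 and -0.24. With the GC correction as well FASN stood at -0.03. The interaction call was kept in 6 of 19 alternative settings for IDI1, 8 of 19 for FASN and 5 of 18 for TM7SF2.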

How the results depend on the processing

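INSIG1, HMGCS1, IDI1 and SQLE kept their call and direction in both Senexin B comparisons under all 20 alternatives run, and IDI1 in TNF against DMSO did so too (highest adjusted p 0.0415). INSIG1 in TNF against DMSO kept its call in 10 of 20, and in SnxB against DMSO MVD did in 17 of 20 and FDFT1 in 12 of 20, all with their direction. No call of TNF_SnxB against SnxB or of the interaction held under every alternative. The cause was not tested.

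The number of the 31 genes called in TNF against DMSO was 2, but 1 without the filter on low counts, 9 with only the groups compared, 7 after the GC correction, 9 without TNF_SnxB libraries 2 and 3 and 8 with both. In TNF_SnxB against TNF it was 19, but 12 with only the groups compared, 11 after the GC correction, 6 without libraries 2 and 3 and 7 with both. In TNF_SnxB against SnxB it was 9, but 4, 1, 0 and 1 in the same order. For the interaction it was 3, but 0 after the GC correction, 1 without libraries 2 and 3 and 0 with both. Over all tested genes the calls in SnxB against DMSO were 301, but 742 with only the groups compared, 708 after the GC correction, 864 without libraries 2 and 3 and 944 with both. In the same order they were 300, but 776, 572, 858 and 745, in TNF against DMSO, 4029, but 2442, 1759, 403 and 438, in TNF_SnxB against TNF, and 2106, but 504, 765, 219 and 248, in TNF_SnxB against SnxB. For the interaction they were 370, but 711 without the filter, 736 with the replicate block, 48 after the GC correction, 19 without libraries 2 and 3 and 21 with both. Only the groups compared could not be run for the interaction, which uses all 4 groups.

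Leaving out 1 library at a time, the counts ran from 4 to 9 in SnxB against DMSO, 1 to 9 in TNF against DMSO, 12 to 25 in TNF_SnxB against TNF, 3 to 16 in TNF_SnxB against SnxB and 0 to 20 for the interaction. The share of all tested genes called moved too, from 1.14% to 5.82%, 1.18% to 5.78%, 12.5% to 44.8%, 3.43% to 35.7% and 0.0198% to 30.0% in the same order. The highest count and share in each came without TNF_SnxB replicate 1, when only the 2 libraries that stand apart are left in that group.

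Among genes called with all libraries or under the alternative, signs turned in TNF_SnxB against TNF for SREBF2 (0.0468 without libraries 2 and 3, and 0.0623 with the GC correction too), for SCAP (0.0539 after the GC correction, and 0.0316 with both), for TM7SF2 (0.000605 with both) and for ACLY, which was not called with all libraries (0.0860 with both, adjusted p 0.0384). In TNF_SnxB against SnxB they turned for DHCR7 (0.00262 without libraries 2 and 3, and 0.00685 with both), for SCAP (0.00186 after the GC correction) and for SREBF2, not called with all libraries (0.136 with both, adjusted p 0.035). Signs of genes called under neither also turned, such as that of IDI1 in TNF_SnxB against SnxB (0.05, and -0.10 without libraries 2 and 3).

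Libraries of the same number did not deviate together (correlations of -0.0372 to 0.0823 over 18 pairs, 0 above 0.1). With 3 libraries a group this cannot exclude pairing. The libraries were treated as unpaired except in the replicate block. With the replicate block the counts of called members were 6, 3, 20, 9 and 3. The order of the 5 comparisons is SnxB with DMSO, TNF with DMSO, TNF_SnxB with TNF, TNF_SnxB with SnxB and the interaction. In that order the calls over all tested genes were 306, 291, 4163, 2203 and 736 with the block. They were 301, 300, 4029, 2106 and 370 without it. The lowest count of a member was 143, and the number of libraries, 3 a group, limits the precision.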

Other observations

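INSIG1, HMGCS1, IDI1, SQLE and FDFT1, the 5 genes lowered by Senexin B alone, all carried the letters ATTTA in the stretch of their longest coding transcript after the stop codon, 6, 4, 11, 3 and 2 times. Of the 25 genes not called 14 carried them (56.0%), against 67.9% of 12495 tested genes with a coding transcript. The search was chosen after the values were known and is a description of letters, and longer stretches hold more matches.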
